A study of Mus musculus with 6 samples.

Results

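Interleukin 2 and the receptors built on the common gamma chain were followed on 6 mouse CD4 T cell arrays, from 3 populations and 2 genotypes. The genes were taken by their symbol in the platform annotation. Of 8 genes listed, 7 had a probe set named there, Il2, Il2ra, Il2rb, Il4ra, Il7r, Il15ra and Il21r, with 13 probe sets among them out of 45101 on the array and 18193 named genes. Il2rg, which encodes the shared chain itself, was not analysed here. Each gene was read from its brightest probe set, by log2 signal averaged over all 6 arrays, and its further probe sets served as a check. All mice were C57BL/6, 10 to 11 weeks old and homozygous for floxed Fur alleles (Fur flox/flox). The Furin cKO mice also carried CD4 cre, a Cre recombinase under the Cd4 promoter, which deletes the floxed gene in T cells from the thymus onward, and the mice without Cre were labelled WT. Furin is a proprotein convertase, and the study asked what its deficiency does to T cells. Activated cells were naive CD4+CD62L+CD44- cells kept for 2 days with immobilised anti-CD3 and anti-CD28, at 5 µg/ml of each. The regulatory cells (CD4+CD25+FoxP3+) and the memory cells (CD4+CD62L-CD44+) were sorted and used fresh. No array held unstimulated naive cells, so naive origin, culture and stimulation cannot be told apart. Below, rose and fell mean called higher or lower in activated cells than in the population named, not a change over time. A gene was called at a limma adjusted p under 0.05. Each of the 6 combinations had 1 array, so no group has a replicate or an SD, and the labels do not say how many mice a sample held.

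Interleukin 2 is the growth factor that CD4 T cells release after antigen receptor stimulation. Its high-affinity receptor has an alpha chain (Il2ra, CD25), a beta chain (Il2rb, CD122), shared with the receptor for IL-15, and the common gamma chain, which also completes the receptors for IL-4, IL-7, IL-9, IL-15 and IL-21. The chains signal through JAK1 and JAK3, largely to STAT5. In CD4 T cells, IL-2 drives the expansion of stimulated cells and keeps regulatory cells alive, and IL-7 sustains resting naive and memory cells.

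The promoters of Il2 and Il7r are shown because, in activated cells against either fresh population, these genes differed in opposite directions and by more than the other members. The sequences are RefSeq's on GRCm38.p6, 250 bases upstream of the annotated start, written in the direction of transcription. Il2 lies at chr3:37125955-37126204 and Il7r at chr15:9529877-9530126, both on the minus strand. Capitals mark matches on either strand to GGAAAA (the core bound by NFAT; TTTTCC on the other strand), TATAAA (a core promoter element) and TTCNNNGAA (the GAS element bound by STAT factors).
Il2: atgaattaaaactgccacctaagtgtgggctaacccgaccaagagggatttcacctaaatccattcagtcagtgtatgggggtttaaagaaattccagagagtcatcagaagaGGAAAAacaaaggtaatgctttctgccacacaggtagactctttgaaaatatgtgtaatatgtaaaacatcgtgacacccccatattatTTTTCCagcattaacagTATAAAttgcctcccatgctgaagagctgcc
Il7r: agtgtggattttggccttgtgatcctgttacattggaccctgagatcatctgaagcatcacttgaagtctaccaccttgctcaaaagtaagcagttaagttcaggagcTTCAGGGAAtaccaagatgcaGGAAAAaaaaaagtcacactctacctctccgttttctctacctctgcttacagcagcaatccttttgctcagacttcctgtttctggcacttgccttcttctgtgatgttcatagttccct
The Il2 window held GGAAAA at 137 and 48 bases upstream of the start and TATAAA at 31 bases upstream. The Il7r window held 1 match to TTCNNNGAA at 142 bases upstream and GGAAAA at 121 bases upstream. Over 32851 promoter windows of the same length, GGAAAA occurred in 20.4% of windows, TATAAA in 12.4% and TTCNNNGAA in 7.02%. TGANTCA (the AP-1 element, in 6.75% of windows), GTAAACA (FOXO, 3.17%) and CGGAAG (ETS, 13.6%) had no match in either window. These matches describe letters in the windows, not occupied sites.

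The deposited signals had a 2% trimmed mean of 500 on each array. A floor was set at a signal of 47.6, the pooled 40th percentile, below which a signal carries no order. The labels were checked first. The Furin probe set read 468.3 (cKO) and 515.8 (WT) in activated cells and 410.0 (cKO) and 547.2 (WT) in regulatory cells. The log2 folds of cKO over WT were -0.14 and -0.42. The scaled median absolute deviation over all genes was 0.21 and 0.33, so the activated fold lay within that spread and the regulatory one a little beyond it. On the memory pair the order was reversed, with 2202.9 on the array labelled Furin cKO and 647.4 on the WT array. The sources used here do not place that probe set relative to the deleted part, so it settles the genotype labels of no pair. Every genotype direction below is that of the labels. Foxp3, the defining factor of regulatory cells, read 33.8 (cKO) and 50.4 (WT) on the regulatory arrays, at or near the floor, while the memory arrays read 1116.4 (cKO) and 1358.2 (WT). Other regulatory cell markers went with the label. Ikzf2, which encodes Helios, read 15968.2 (cKO) and 13900.9 (WT) on the regulatory arrays and 8212.6 (cKO) and 9418.9 (WT) on the memory arrays, and Gpr83 read 2707.1 (cKO) and 2972.1 (WT) on the regulatory arrays and 433.8 (cKO) and 687.6 (WT) on the memory arrays. The T cell gene Cd3e was above the floor on all arrays, at 1309.7 (cKO) and 1599.8 (WT) in activated cells, 4973.6 (cKO) and 6551.8 (WT) in regulatory cells and 8418.6 (cKO) and 8712.5 (WT) in memory cells. Of 7 T cell genes, 6 were called lower in activated than in memory cells (median log2 difference -1.94) and 4 lower than in regulatory cells (-1.70), the direction of Il2rb and Il7r. Over all genes tested, 27% were called lower than in memory cells and 26.7% lower than in regulatory cells. The hybridisation control bioB differed by population, at 753.8 to 852.3 on activated, 2213 to 2503 on regulatory and 4078 to 4930 on memory arrays. The ratio of 3' to 5' Gapdh signal was 1.48 (cKO) and 1.51 (WT) on activated arrays and 0.627 to 1.02 on the other 4. The same ratio for actin ran the other way, at 1.24 (cKO) and 1.22 (WT) on activated arrays and 1.35 to 1.93 on the other 4. Probe sets at or above the floor made up 49.8% (cKO) and 49.4% (WT) on activated arrays and 62.6% to 67.4% on the other 4. No label names a batch, and these differences between arrays cannot be told apart from population. Markers of other cells and of division also moved with population. In activated over memory cells, limma called lower 7 of 9 B cell, 5 of 7 plasma cell, 4 of 7 natural killer, 4 of 9 granulocyte and 14 of 18 myeloid and dendritic markers, and called higher 6 of 9 dividing-cell and 2 of 7 plasma cell markers. The shares over all genes tested were 27% lower and 17.4% higher. The summed signal of the 18 myeloid and dendritic genes was 2477.7 (cKO) and 2482.8 (WT) on activated arrays, 11092.3 (cKO) and 10873.7 (WT) on regulatory arrays and 40349.5 (cKO) and 78237.1 (WT) on memory arrays. In activated cells 7 (cKO) and 9 (WT) of the 18 were above the floor, in regulatory cells 17 (cKO) and 16 (WT), and in memory cells 18 (cKO) and 15 (WT). Their part in the differences below was not tested.

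Il2, the ligand, differed more across the populations than any receptor gene measured. It read 12874.6 (cKO) and 10454.9 (WT) in activated cells, 53.3 (cKO) and 29.2 (WT) in regulatory cells, and 1465.1 (cKO) and 424.2 (WT) in memory cells. Both activated arrays were above both memory arrays, and both memory arrays were above both regulatory arrays, 1 of which lay under the floor. Activated cells were 14.7-fold above memory cells (log2 difference 3.88, SE 0.46, limma adjusted p = 0.00532) and at least 230-fold above regulatory cells (log2 difference 7.85, adjusted p = 0.00214). The regulatory cells were at least 15.6-fold below memory cells (log2 difference -3.97), which did not pass the threshold (adjusted p = 0.0675). The call against memory cells was lost without the WT activated array (adjusted p = 0.0641) and without either regulatory array (0.0917 for each), at log2 differences of 3.54 and 3.88.

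Il2ra, the alpha chain, was high in both stimulated and regulatory cells. It read 2340.2 (cKO) and 2320.5 (WT) in activated cells, 3702.1 (cKO) and 4276.9 (WT) in regulatory cells and 626.8 (cKO) and 1190.3 (WT) in memory cells, and the populations did not overlap. Activated cells were 2.70-fold above memory cells (log2 difference 1.43, SE 0.27, limma adjusted p = 0.0171). The second probe set gave a larger difference, with 1676.7 (cKO) and 1223.2 (WT) in activated cells and 286.1 (cKO) and 316.7 (WT) in memory cells, 4.76-fold. The call was lost when any array other than the WT memory one was left out, with adjusted p between 0.0641 and 0.159. CD25, the product of Il2ra, was a marker by which regulatory cells were taken, so their level, 4.61-fold above memory cells and 1.71-fold above activated cells, is a description with no test. On the second probe set activated and regulatory cells overlapped, the regulatory arrays reading 1667.2 (cKO) and 1812.9 (WT).

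Il2rb, the beta chain, was low in activated cells and high in both freshly sorted populations. It read 389.1 (cKO) and 508.4 (WT) in activated cells, 6842.0 (cKO) and 7489.5 (WT) in regulatory cells and 4436.1 (cKO) and 5514.7 (WT) in memory cells. Both activated arrays lay far under the other 4, and regulatory arrays lay above memory arrays without overlap. Activated cells were 11.1-fold below memory cells (log2 difference -3.48, SE 0.14, limma adjusted p = 0.00189) and 16.1-fold below regulatory cells (-4.01, adjusted p = 0.00188). The second probe set gave 17.7-fold and 30.1-fold lower levels in activated cells. The regulatory over memory difference, 1.45-fold, did not pass (adjusted p = 0.157, log2 interval 0.14 to 0.93). On the probe sets used, each chain gene read highest in regulatory cells. For Il2ra this is a description because CD25 marked the sort, and on its second probe set activated and regulatory cells overlapped. Against memory cells, activated cells read higher for the alpha chain gene and lower for the beta chain gene.

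**Figure D1:**
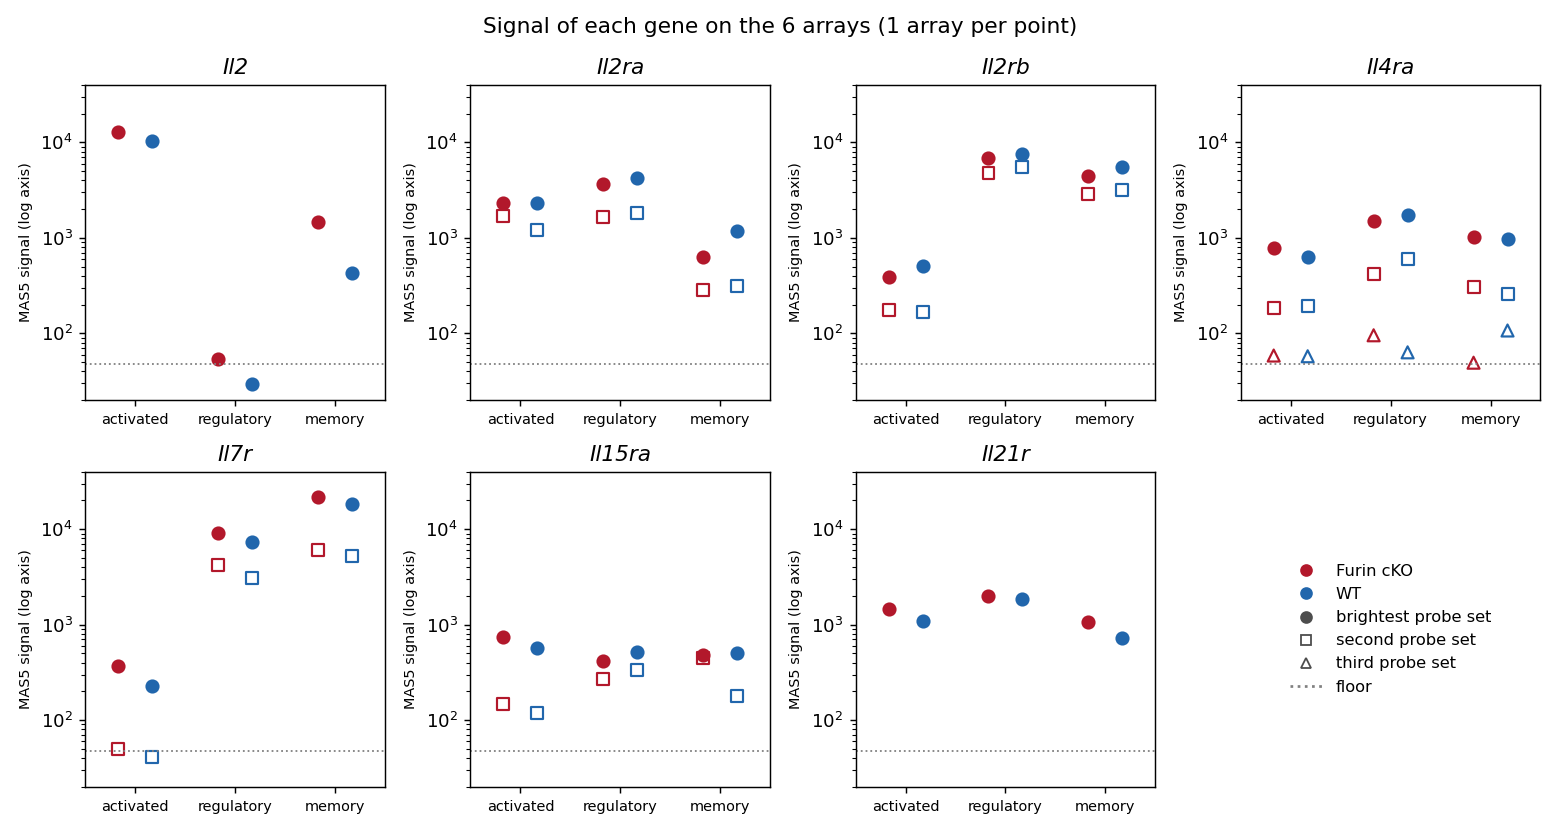
Deposited MAS5 signal (log axis) of each gene on each of the 6 arrays, by population, with Furin cKO in red left of WT in blue; circles are the probe set used, squares and triangles the further probe sets, and the dotted line the floor of 47.6. Il2 is high on the activated arrays, where Il2rb and Il7r are low, and the open squares of Il15ra order the populations differently from its circles.

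Il7r, the alpha chain of the IL-7 receptor, read lower in activated cells than in either fresh population, by more than any other receptor chain measured. It read 372.2 (cKO) and 225.4 (WT) in activated cells, 9034.1 (cKO) and 7316.9 (WT) in regulatory cells and 21717.4 (cKO) and 18388.7 (WT) in memory cells. The order memory, regulatory, activated held on both genotypes without overlap. Activated cells were 69.0-fold below memory cells (log2 difference -6.11, SE 0.18, limma adjusted p = 0.00182) and 28.1-fold below regulatory cells (-4.81, adjusted p = 0.00188). The regulatory cells read 2.46-fold below memory cells, which did not pass the threshold (log2 difference -1.30, adjusted p = 0.0812). The second probe set kept the order, with activated signals at the floor (49.7 in cKO and 41.4 in WT) and at least 116-fold below memory cells.

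Il4ra, the chain that binds IL-4 and pairs with either the gamma chain or the IL-13 receptor, differed less. It read 784.2 (cKO) and 631.4 (WT) in activated cells, 1504.5 (cKO) and 1736.1 (WT) in regulatory cells and 1024.4 (cKO) and 969.4 (WT) in memory cells, with no overlap between populations. Activated cells were 2.30-fold below regulatory cells (log2 difference -1.20, SE 0.18, limma adjusted p = 0.00975). The second probe set gave 2.63-fold, and the third read between 49.3 and 107.2 on all arrays, close to the floor. The call was lost with any 1 of the 6 arrays left out, with adjusted p between 0.0605 and 0.0932. Activated over memory (log2 difference -0.50, adjusted p = 0.0937) and regulatory over memory (0.70, adjusted p = 0.147) did not pass.

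Il21r, the IL-21 receptor chain, read 1463.5 (cKO) and 1105.0 (WT) in activated cells, 1981.7 (cKO) and 1857.7 (WT) in regulatory cells and 1068.4 (cKO) and 719.5 (WT) in memory cells. Regulatory arrays were the highest and memory arrays the lowest, without overlap, but the WT activated and cKO memory arrays nearly met. None of its differences passed in limma, at adjusted p = 0.0733 for activated over memory (log2 0.54), 0.0559 for activated over regulatory (-0.59) and 0.0884 for regulatory over memory (1.13). The first 2 passed with an intensity trend in the moderation (0.04 and 0.0296) and with a floor raised to the pooled 60th percentile (0.0387 and 0.0287), the second also with the mean of probe sets (0.0473), and the third with that floor (0.0442). Il15ra, which binds IL-15 and presents it to cells that carry the beta and gamma chains, had the narrowest range of the 7 genes over the 6 arrays. It read 742.3 (cKO) and 571.5 (WT) in activated cells, 419.8 (cKO) and 513.0 (WT) in regulatory cells and 486.5 (cKO) and 505.4 (WT) in memory cells, so regulatory and memory arrays overlapped. Its log2 differences were 0.39 for activated over memory (interval -0.18 to 0.97, adjusted p = 0.218) and 0.49 for activated over regulatory (interval -0.08 to 1.06, adjusted p = 0.137). Its second probe set went the other way, with 146.1 (cKO) and 119.8 (WT) in activated cells, 269.0 (cKO) and 337.9 (WT) in regulatory cells and 444.9 (cKO) and 178.2 (WT) in memory cells. No direction for Il15ra can be given from these probe sets.

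**Figure D2:**
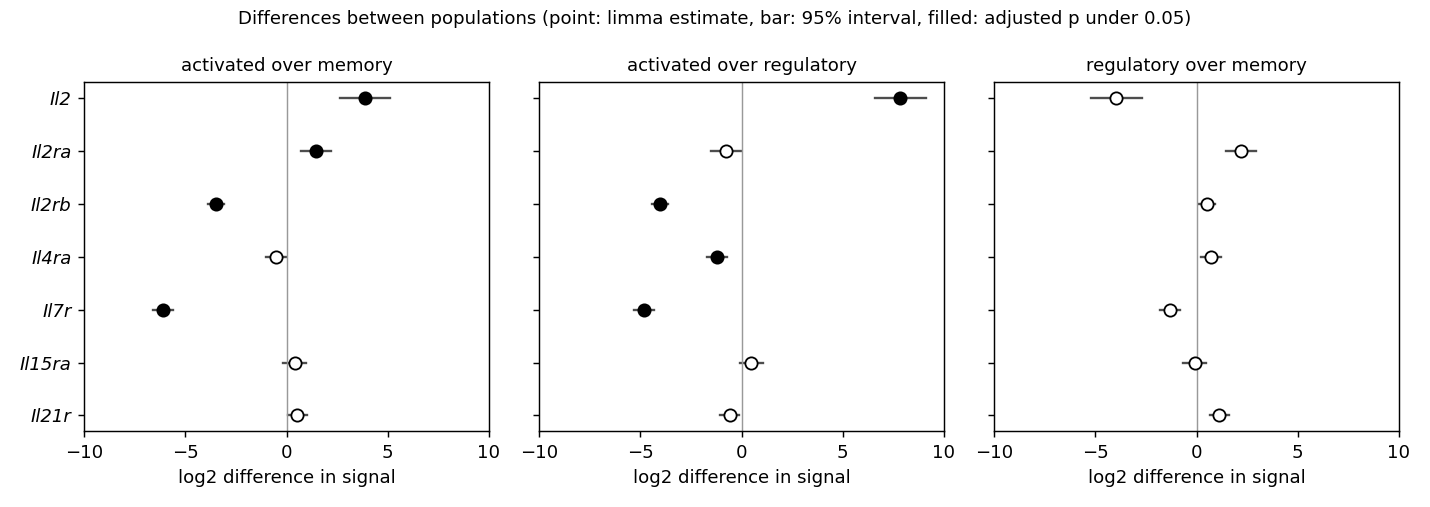
Log2 difference in signal between populations for each gene (limma estimate over all 6 arrays with its 95% interval; filled points have an adjusted p under 0.05). Il2 lies to the right in both comparisons of activated cells, Il2rb and Il7r to the left, and no point of the regulatory over memory panel is filled; the regulatory values of Il2ra are a description.

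Across all 15720 genes tested, 17.4% were called higher and 27% lower in activated than in memory cells, and 18.2% higher and 26.7% lower in activated than in regulatory cells. Of the 7 members, 2 were called higher (Il2 and Il2ra) and 2 lower (Il2rb and Il7r) against memory cells, and 1 higher (Il2) and 3 lower (Il2rb, Il4ra and Il7r) against regulatory cells. With calls this common over the array, a count of 4 among 7 members is near the background. Median log2 differences were 0.39 for the members and -0.21 for all genes in activated over memory, and -0.77 and -0.22 in activated over regulatory. The share of higher calls depended on scaling. Of all genes called, 39.2% were higher in activated over memory as deposited, 51.6% after quantile normalisation and 52.5% after cyclic loess; in activated over regulatory the shares were 40.6%, 55.3% and 56.4%. The members kept their directions between populations under both scalings, and Il15ra was then also called higher in activated over regulatory cells (log2 0.79 and 0.80, adjusted p = 0.0404 and 0.0395). Without the cKO or the WT regulatory array, limma called 0 genes and 0 members in activated over regulatory, and the adjusted p of Il2, Il2rb and Il7r lay between 0.0713 and 0.0841 at log2 differences of similar size. Regulatory over memory called 0% of genes at the adjusted threshold in limma, with 3361 genes and 6 of 7 members at an unadjusted p under 0.05. Il2ra is among those 6, where it is no test because CD25 marked the sort. In bulk RNA, fewer cells of a kind and less RNA per cell cannot be told apart.

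Genotype differences within a population are folds between 2 single arrays, with no test. In activated cells 0 of 7 members passed 2-fold, against a background of 0.362% of 10775 genes higher and 0.353% lower. In regulatory cells 0 of 7 passed, against 3.05% higher and 2.06% lower of 14530 genes. In memory cells 1 of 7 passed, Il2, higher in cKO, against 5.51% higher and 3.56% lower of 14199 genes. The middle spread of all genes, as a scaled median absolute deviation of log2 folds, was 0.21 in activated, 0.33 in regulatory and 0.47 in memory cells, so the same fold is less unusual in memory cells.

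Il2 in memory cells read 3.45-fold higher on the cKO array (1465.1) than on the WT array (424.2), above 99.1% of genes measured there (log2 fold 1.79, and 1.75 to 2.01 under the alternatives run). On the same pair Furin itself read 3.40-fold higher in the sample labelled cKO. With those labels exchanged, Il2 would read 3.45-fold lower. In activated cells the log2 fold was 0.30, and in regulatory cells both signals were near the floor. Il2ra read 1.90-fold lower in cKO memory cells (log2 fold -0.93), but its second probe set gave -0.15, with 286.1 (cKO) and 316.7 (WT). In activated cells Il2ra was level (log2 fold 0.01), and in regulatory cells it was -0.21. Il7r read 1.65-fold higher in cKO activated cells, 372.2 against 225.4 in WT, a log2 fold of 0.72 above 98.8% of genes there. The second Il7r probe set, at the floor in those cells, gave 0.06.

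The other members were within 1.5-fold in each population on the probe set used. Il21r had log2 folds of 0.41 in activated, 0.09 in regulatory and 0.57 in memory cells. Il2rb had -0.39, -0.13 and -0.31 in the same order of populations, and its second probe set gave 0.06, -0.21 and -0.12. Il4ra had 0.31, -0.21 and 0.08, and Il15ra 0.38, -0.29 and -0.06, the last turning to 0.04 with quantile and 0.03 with cyclic loess normalisation. The second Il15ra probe set gave a log2 fold of 1.32 in memory cells, 444.9 in cKO against 178.2 in WT, which the first did not show. By the probe sets used, Il2, Il7r and Il21r were higher in cKO in all 3 populations and Il2rb was lower. For all 4 of these genes this rests on the labels of the memory pair, on which Furin is higher in cKO, and their memory direction would turn if those labels were exchanged. The Il2 signals in regulatory cells were near the floor, at 53.3 (cKO) and 29.2 (WT). How many of all genes kept a direction over the 3 populations was not counted. The genotype term of the limma fit called 0% of genes and 0 of 7 members, with 445 genes and 1 member, Il7r (log2 0.42, unadjusted p = 0.0445), at an unadjusted p under 0.05. The adjusted p was 0.819 for Il7r, and the error of this term is the spread of the cKO to WT difference over the 3 populations, not over mice.

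**Figure D3:**
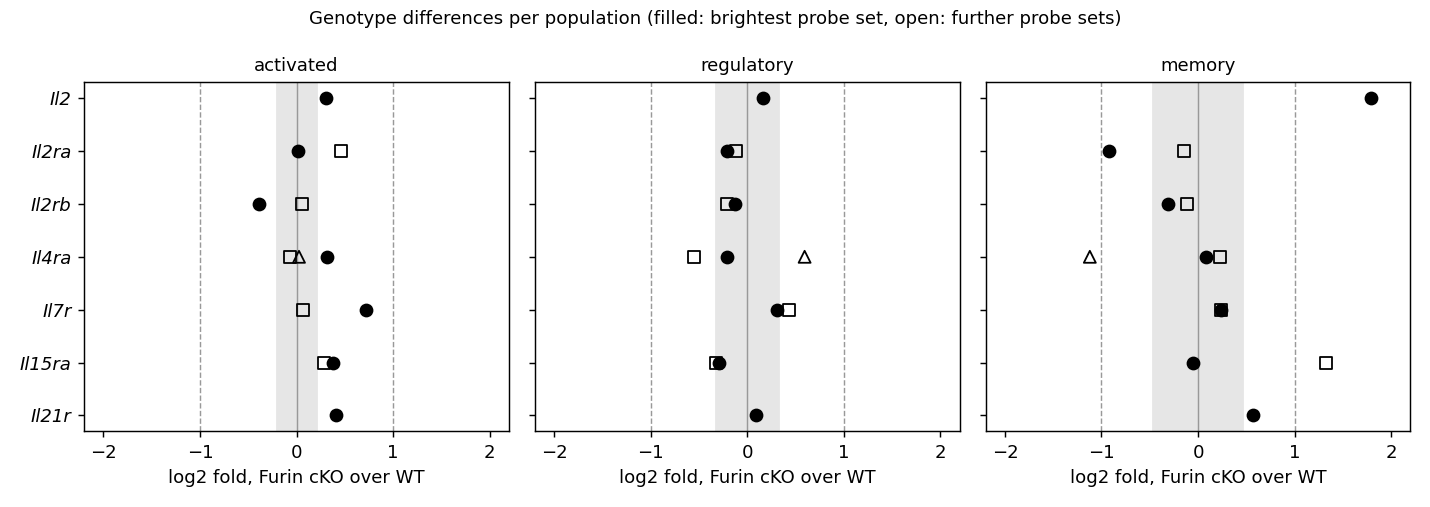
Log2 fold of Furin cKO over WT for each gene in each population (1 array each; filled, the probe set used; open, further probe sets). The grey band is the scaled median absolute deviation of all genes and dashed lines mark 2-fold; Il2 in memory cells is the filled point past 2-fold.

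Markers of other cells also differed between the 2 memory arrays. Of all 14199 genes measured on that pair, 5.51% were at least 2-fold higher in cKO and 3.56% lower. Myeloid and dendritic markers summed to 40349.5 (cKO) and 78237.1 (WT), with 5 of 18 more than 2-fold lower and 1 higher in cKO. Markers of natural killer cells summed to 19680.2 (cKO) and 1554.9 (WT), most of the cKO sum being Gzma at 18470.5 (cKO) and 479.7 (WT). Of these 7 markers, 5 read higher in cKO, 2 of them more than 2-fold, Gzma and Klra8. Klra8 read 103.9 (cKO) and 2.3 (WT), and Klre1 read 497.0 (cKO) and 314.1 (WT). Ncr1, a defining receptor of those cells, read 89.3 (cKO) and 75.8 (WT), and Eomes and Prf1 read lower in cKO. Granulocyte markers summed to 8159.0 (cKO) and 2199.6 (WT). Plasma cell markers summed to 21144.5 (cKO) and 14055.2 (WT), with Jchain at 3184.6 (cKO) and 374.4 (WT). Of the 7, 4 read higher in cKO, while Sdc1, Xbp1 and Irf4 read lower, at a median log2 fold of 0.17. B cell markers summed to 13481.9 (cKO) and 15935.1 (WT), most of it Ighm at 9364.8 (cKO) and 12987 (WT). Of the 9, 5 read higher in cKO, and 3, Ms4a1 among them at 1284.9 (cKO) and 297.4 (WT), were more than 2-fold higher. Dividing-cell markers summed to 35199.3 (cKO) and 12759.8 (WT), with 7 of 9 more than 2-fold higher in cKO. On the regulatory arrays 5 of 9 dividing-cell and 4 of 8 granulocyte markers were more than 2-fold higher in cKO. Of all 14530 genes measured on the regulatory pair, 3.05% were at least 2-fold higher and 2.06% lower. On activated arrays the dividing-cell sums were close, at 67619.9 (cKO) and 68263.5 (WT). The part of these cells in the Il2 and Il2ra values of memory cells was not tested.

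The other ligands and chains of the family were mostly dim. Of 10 genes, 7 were above the floor on some array. Against memory cells, 0 rose and 3 fell in activated cells, beside 17.4% higher and 27% lower of all 15720 genes tested. Il4, a T helper cytokine, read 27.1 (cKO) and 25.7 (WT) in activated cells and 427.7 (cKO) and 1408.3 (WT) in memory cells, at least 16.3-fold lower in activated cells (limma adjusted p = 0.00538). Il21, the ligand of Il21r, read 8.0 (cKO) and 11.1 (WT) in activated cells and 868.4 (cKO) and 465.5 (WT) in memory cells, at least 13.4-fold lower (adjusted p = 0.00385). Activated cells thus carried a high Il2 signal with Il4 and Il21 under the floor. Crlf2, which pairs with the IL-7 receptor chain to bind TSLP, also fell (log2 difference -1.91, adjusted p = 0.00494). Between the memory arrays, Il4 read 3.29-fold lower in cKO, while Il21 read 1.87-fold higher, in the direction of Il2.

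Of 14 measured genes of JAK and STAT signalling, 1 rose and 9 fell in activated against memory cells, at a median log2 difference of -0.84. Over all 15720 genes tested, 17.4% were called higher and 27% lower, at a median of -0.21. Jak1, a kinase bound to the private chains, read 2134.9 (cKO) and 2300.9 (WT) in activated cells and 9303.4 (cKO) and 10699.9 (WT) in memory cells (log2 -2.17, limma adjusted p = 0.00209). Jak3, the kinase bound to the gamma chain, fell by 0.83 on the log2 scale (adjusted p = 0.024). Jak2, which the gamma chain receptors do not chiefly use, was the gene that rose (log2 1.29, adjusted p = 0.0117). The lipid kinase subunit gene Pik3cd (-2.96) and the kinase gene Syk (-2.77) fell most. The close paralogues Stat5b and Stat5a did not move alike, as Stat5b fell (-1.14, adjusted p = 0.0133) and Stat5a did not pass (0.67, adjusted p = 0.178). Between the memory arrays all 14 genes read lower in cKO, though none passed 2-fold, with a median log2 fold of -0.27 against -0.01 for all genes. Of all genes measured on that pair, 49.2% read higher in cKO, and the scaled median absolute deviation was 0.47. These folds come from 1 array of each genotype, and their direction rests on the labels of the memory pair. Stat5a (-0.76) and Stat6 (-0.71), the main transducer of IL-4, read lowest.

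Beside the 17.4% of all genes called higher and 27% called lower, the genes known to respond to STAT5 or IL-2 were read. Of these 25 genes, 6 rose and 12 fell in activated against memory cells, at a median log2 difference of -0.47. Those that rose most were Tfrc, the transferrin receptor gene (log2 3.07, limma adjusted p = 0.00189), and Myc, a driver of growth (2.48, adjusted p = 0.00209). Ltb, a cytokine gene of the lymphotoxin family, fell by 5.06 on the log2 scale (adjusted p = 0.00182), and Prdm1, which encodes Blimp-1 and is also in the list of regulators, by at least 4.70 on that scale. The feedback inhibitor genes Cish, Socs1, Socs2 and Socs3 all fell, and the survival genes split, Bcl2l1 rising (2.14) and Bcl2 falling (-1.63). Between the memory arrays, 2 of 25 passed 2-fold, both higher in cKO, a count near the background. Of all 14199 genes measured on that pair, 5.51% were at least 2-fold higher in cKO and 3.56% lower. Gzmb, a cytotoxic granule protease gene, read 2547.2 (cKO) and 653.2 (WT), and Socs3 read 3283.9 (cKO) and 1552.0 (WT).

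Of 27 measured regulators of the Il2 and Il7r genes, 4 rose and 10 fell in activated against memory cells. The shares over all genes tested were 17.4% higher and 27% lower. Fosl2, an AP-1 subunit gene (log2 3.17, limma adjusted p = 0.00375), Egr2 (2.30, adjusted p = 0.00207), the NF-kB subunit gene Rel (1.82, adjusted p = 0.0024) and Crem (1.43, adjusted p = 0.00424) rose. Klf2, a quiescence factor, read 54.6 (cKO) and 61.0 (WT) in activated cells and 6029.4 (cKO) and 4249.1 (WT) in memory cells (-6.45, adjusted p = 0.00189). Ikzf3, which encodes Aiolos, fell by 5.36 on the log2 scale (adjusted p = 0.00182) and Foxo1, an activator of Il7r, was 3.99-fold lower (adjusted p = 0.00303). Nfatc1 and Nfatc2, whose products bind the Il2 promoter, both fell at the level of transcript (-0.74 and -1.64). Fos and Jun, the founding AP-1 subunit genes, passed no test between populations and differed past 2-fold between genotypes in memory and regulatory cells. Fos read 4468.6 (cKO) and 628.0 (WT) in memory cells, 478.5 (cKO) and 1427.4 (WT) in regulatory cells and 1245.5 (cKO) and 1388.7 (WT) in activated cells. Jun read 2441.2 (cKO) and 393.8 (WT) in memory cells and 209.5 (cKO) and 814.5 (WT) in regulatory cells. In the memory pair, Fos, Jun and Il2 were all higher on the cKO array, and in the regulatory pair Fos and Jun were lower there. The other AP-1 genes listed, Fosl2, Fosb, Junb and Jund, were not higher in cKO memory cells, with log2 folds of -1.11, -0.06, -0.01 and -0.15. In regulatory cells theirs were 0.04, 0.36, -0.26 and 0.10. A link of these genes to the Il2 values was not tested.

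**Figure D4:**
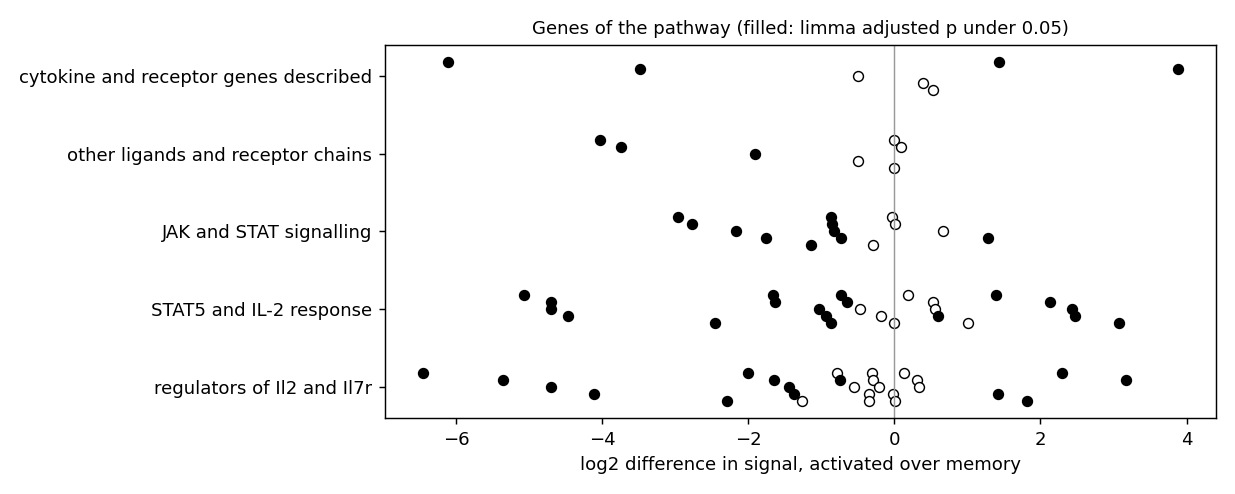
Log2 difference in signal of activated over memory cells for the 7 genes described and the 4 gene lists (1 point per gene; filled points have a limma adjusted p under 0.05). Lower calls outnumber higher ones in all 4 lists, while the 7 genes hold 2 of each.

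Against regulatory cells the lists gave a like split, with 0 higher and 3 lower in activated cells among the ligands and chains, 1 and 8 among JAK and STAT genes, 5 and 10 among response genes and 3 and 11 among regulators. All of these comparisons share the activated arrays. The lower calls outnumber the higher ones over the whole array too, at 26.7% against 18.2% of genes tested against regulatory cells.

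The genes most like each member over the 6 arrays were found by Pearson correlation of log2 signal, with points that share arrays and fall into 3 pairs by population. Il2 was most like Fbxw11 (r = 0.998), Pdcd6ip and Cdk2ap1, and Il2ra most like Gucy1b1 (0.986), Zfp467 and Rab12. Il2rb was most like Lgals8 (0.999), Leng9 and Ralgps2, and Il7r most like Naca (0.999), Myl12b and Srgn. Such likeness was common for genes set by the contrast of activated with fresh cells, since 1428 of 7153 candidate genes exceeded 0.95 with Il2rb and 1277 with Il7r. It was rare for Il2ra (19 genes), Il21r (4) and Il15ra (3). Il4ra was most like Mpp1 (0.990), Bid and R3hcc1l, Il21r like Slc25a27 (0.966), Inpp4b and Fam199x, and Il15ra like Dohh (0.958), Cenpt and Dnmt3b. Among the members, Il2rb and Il7r went together (r = 0.93), Il2 ran against Il4ra (-0.95) and Il2rb (-0.91), and Il2ra had an r of -0.03 with Il2rb.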

How the data were processed

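Gene expression was measured in 6 samples, 1 array per combination of genotype and population, from 5 µg of total RNA extracted with Trizol and labelled as biotinylated cRNA, per the labels' protocols. The deposited values are array signals (intensity on a linear scale) produced with MAS5 according to what is named per the submitters' processing notes; the sources used here state neither its version and settings nor an annotation build. Of 45037 probe sets other than the 64 controls, 34945 carried 1 gene symbol, 932 several and 9160 none; the last 2 kinds were left unnamed. Of the 34945, 34741 matched a RefSeq gene table (GRCm38.p6, names only) by Entrez identifier. The promoter table held 7 of the 8 genes.

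Signals under the floor of 47.6 were raised to it before log2, and a gene under it on both arrays of a genotype comparison was dropped from it. Any fold against an array under the floor is a lower bound, written "at least". Populations were compared with limma 3.58.1 in R 4.3.3 (population plus genotype over 6 arrays, 2 residual degrees of freedom, empirical Bayes, Benjamini-Hochberg over 15720 genes, threshold 0.05), which was tested on simulated data. That simulation gave all genes and populations the spread of the activated pair, the narrowest, so it does not give the error rate on these arrays. The p-values measure spread between these arrays, and the number of arrays limits the precision. Genes named are the members, the 3 genes most like each, and, from each list, the 2 largest differences each way with the brighter array at a signal of 144.8 or more; further list genes were named for their role after their values were seen. Members and lists were chosen with earlier results of these data known. Alternatives were a floor at the 20th or 60th percentile, no floor with a pseudocount of 16, quantile and cyclic loess normalisation, the mean of probe sets, an intensity trend in the moderation, and leaving out each array.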

Additional observations from a re-analysis of the deposited data

How the results depend on the processing

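No paired analysis was possible because the labels give no replicate numbers, beyond the comparison of genotypes within populations that the fit already makes. No member's called difference changed sign under any alternative run. Of the members' alternative genotype folds, 125 shifted from the main value by less than the scaled median absolute deviation of all genes. The other 17 shifted by more, mostly by taking another probe set or the mean of them. The size of a shift does not say whether the fold itself lies within that spread. Of the differences between populations, 240 kept their side of the threshold, 13 came past it and 20 lost it, all 20 when an array was left out. Il15ra changed direction with the mean of its probe sets, to log2 differences of -0.35 for both activated over memory and activated over regulatory. Genes past 2-fold between the genotypes numbered 77 in activated cells, and 195 with cyclic loess, 915 and 26 with the floor at the 20th and 60th percentile, 44 with the mean of probe sets and 533 with no floor. In regulatory cells they numbered 742, and 414, 3132, 77, 438 and 2239 under those settings in that order. In memory cells they numbered 1288, and 3687, 472, 841 and 2921 under those settings without cyclic loess. Regulatory over memory called 128 genes and 3 members (Il2, Il2ra and Il7r) with an intensity trend, 453 genes and 3 members (Il2ra, Il7r and Il21r) with the 60th percentile floor, where Il2ra is no test in either case because CD25 marked the sort, and 21 genes with the mean of probe sets, against 0. With 1 array left out, genes called numbered 1699 to 3400 in activated over memory and 0 to 5245 in activated over regulatory, with 2 to 4 and 0 to 3 members. A left-out array leaves its population with 1, assumed to vary like the others. The cause was not tested.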

Other observations

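Several of these genes are neighbours. In the RefSeq gene table, 0 protein-coding genes lie between Il2ra and Il15ra, between Il4ra and Il21r, and between Il2 and Il21. Il2ra and Il15ra had a correlation of log2 signal of 0.03 and Il4ra and Il21r one of 0.59 over the 6 arrays, as a description. In activated cells Il2 read 12874.6 (cKO) and 10454.9 (WT), while Il21 read 8.0 (cKO) and 11.1 (WT), under the floor. In memory cells both were above the floor and both were higher on the array labelled Furin cKO, with log2 folds of 1.79 for Il2 and 0.90 for Il21.

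In the other promoter windows, Il21r held GTAAACA at 38 bases upstream of its start and Il2rg held CGGAAG at 16 bases upstream. Of the 2 Il15ra windows, the first held GGAAAA at 245 and CGGAAG at 103 bases upstream, and the second held TGANTCA at 30 bases upstream. The windows of Il2ra and Il4ra held none of the 6 motifs searched.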
